A study of Mus musculus with 4 samples.

Results

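Reactive glia and acute phase genes are described here in the cerebellum of mice that lack Derlin-2 in the nervous system. The 10 genes are Lcn2, Lrg1, Serpina3n, C3, Timp1, Osmr, Cd44, Gfap, Vim and Steap4, out of 22911 genes with a probe named by RefSeq accession. They were chosen by name, with knowledge of earlier results of these arrays: Lcn2 and Lrg1 were known to be bright on 1 KO array, and the question was whether the other 8 follow. Values that chose Lcn2 and Lrg1 are therefore given as a description, with no test. Cerebellar RNA of C57BL/6 mice at postnatal day 28 (150 ng, Cy3) was hybridised to one-colour Agilent arrays. The 2 control samples were Derlin-2flox/flox. The 2 KO samples came from intercrosses of Derl2flox/flox mice with mice whose Cre recombinase is under the nestin promoter, so the deletion is set by where that promoter is or was active, and cells without it keep the gene. The labels name no Cre in the controls, give no sex, and do not say whether the mice were littermates or whether each sample is 1 animal. The p-values therefore measure only the spread between these samples, which may be technical.

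Lcn2 (lipocalin 2, a secreted protein that binds iron-carrying siderophores), Lrg1 (a secreted leucine-rich glycoprotein) and Serpina3n (a serine protease inhibitor) are acute phase genes that are switched on by cytokines in liver, blood vessels and astrocytes. In injured or inflamed brain, astrocytes raise intermediate filament genes such as Gfap and Vim together with a shared set of reactive genes that includes most of the 10. A well-known route is the interleukin-6 family: ligands bind receptors that share the subunit gp130, the transcription factor STAT3 is activated, and C/EBP and NF-κB factors act with it on many of the same genes.

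Lcn2, Lrg1 and Osmr stood out on 1 array, as described next, so their promoters are shown. The sequences are the 250 bases before the transcription start, 5′ to 3′ on the gene's strand, from RefSeq (GRCm38.p6). Capitals mark matches to an NF-κB pattern (GGGNNNNNCC) or a C/EBP pattern (TTNNGNAA), each searched on both strands. A STAT pattern (TTCNNNGAA) was searched as well. The Lcn2 promoter lies at chr2:32387740-32387989 on the minus strand, that of Lrg1 at chr17:56121947-56122196 on the minus strand, and that of Osmr at chr15:6874314-6874563 on the minus strand.
Lcn2: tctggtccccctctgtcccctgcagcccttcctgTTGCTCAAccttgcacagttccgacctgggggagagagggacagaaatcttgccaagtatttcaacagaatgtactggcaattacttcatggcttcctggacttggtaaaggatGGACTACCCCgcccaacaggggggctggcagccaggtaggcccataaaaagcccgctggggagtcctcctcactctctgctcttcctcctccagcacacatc
Lrg1: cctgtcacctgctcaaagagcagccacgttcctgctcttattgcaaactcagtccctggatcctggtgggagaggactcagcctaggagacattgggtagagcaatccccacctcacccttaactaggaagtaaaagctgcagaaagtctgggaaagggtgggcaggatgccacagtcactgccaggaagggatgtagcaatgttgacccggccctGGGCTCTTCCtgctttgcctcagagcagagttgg
Osmr: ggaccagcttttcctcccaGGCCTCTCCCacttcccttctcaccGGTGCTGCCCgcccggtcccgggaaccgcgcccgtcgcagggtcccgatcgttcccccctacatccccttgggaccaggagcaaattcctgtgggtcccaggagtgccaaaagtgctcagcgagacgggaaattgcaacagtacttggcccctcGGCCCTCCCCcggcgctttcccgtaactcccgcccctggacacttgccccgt
Over the 300 bases searched (250 before to 50 after the start), the STAT pattern was in 0 of these 3 promoters, the NF-κB pattern in 3 and the C/EBP pattern in 1, that of Lcn2, with 0 overlaps between patterns. Promoters were listed for all 10 genes. The STAT pattern was in 2 of the 10 (Gfap and Steap4), against 8.3% of the 32851 promoters in the table. The NF-κB pattern was in 10 of 10, against 50.8%, and the C/EBP pattern in 6 of 10, against 40.7%. These are matches of letters, and no binding was measured.

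The 10 genes had 16 probes, each with 1 spot per array. Of these, 12 probes were well above background on all 4 arrays, 3 were so on no array, and 1, the dimmer Lcn2 probe, was so on a single array. The filter (well above background on both arrays of a group) kept the 12, for 9 of the 10 genes, all except Steap4. No member spot was saturated, flagged as an outlier or on a patch of raised local background (0 of each), and the local background at these spots ran from 20 to 30 intensity units. Levels below are log2 signal minus the 75th percentile of the same array, and are compared between arrays for 1 probe at a time.

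The arrays were checked once as a whole. Both Derl2 probes were lower on both KO arrays than on both controls, by −1.73 and −1.41, both at 0.273 after limma's adjustment (p adjusted by Benjamini-Hochberg). The median absolute log2 difference between arrays was 0.126 for the controls, 0.160 for the KO arrays and 0.174 to 0.207 across groups, over 35661 probes. The arrays share 1 slide, controls and KO at different places on it, so place and genotype cannot be told apart. All markers read for granule cells (8 of 8) and Purkinje cells (8 of 8), the defining neurons of cerebellum, passed the filter.

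Lcn2 was more than 10 times as bright on the array of KO replicate 2 as on any other array. On its brighter probe, A_55_P2070869, the level was −2.99 and −3.0 in control replicates 1 and 2, −2.84 in KO replicate 1 and 0.61 in KO replicate 2. The first 3 arrays lay within 0.16 of each other, and KO replicate 2 was 3.45 above the highest of them, a ratio of 10.9. In intensity units the same spots read 100.2, 98.8 and 106 against 1100. The second Lcn2 probe, A_51_P510156, lies elsewhere on the array and showed the same pattern: it was well above background on KO replicate 2 alone, at −1.64. There it was at least 20.3-fold above the mean, over the other 3 arrays, of the lowest signal called well above background. Both probes thus placed 1 KO sample apart from the other KO sample and from both controls. In whole tissue, more cells of a kind and more RNA per cell cannot be told apart.

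Lrg1 shared with Lcn2 the array on top, but not the order of the 3 lower arrays. Its probe, A_51_P346938, had levels of −2.76 and −2.62 in the controls, −3.58 in KO replicate 1 and 0.18 in KO replicate 2. KO replicate 2 was 2.79 above the highest other array, a ratio of 6.93, while KO replicate 1 was the lowest of the 4. The 3 lower arrays ranged over 0.97, so Lrg1 varied more than Lcn2 among them. The KO minus control difference of group means was 1.88 for Lcn2 and 0.98 for Lrg1. Both rest on KO replicate 2: without it they were 0.15 and −0.90.

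**Figure D1:**
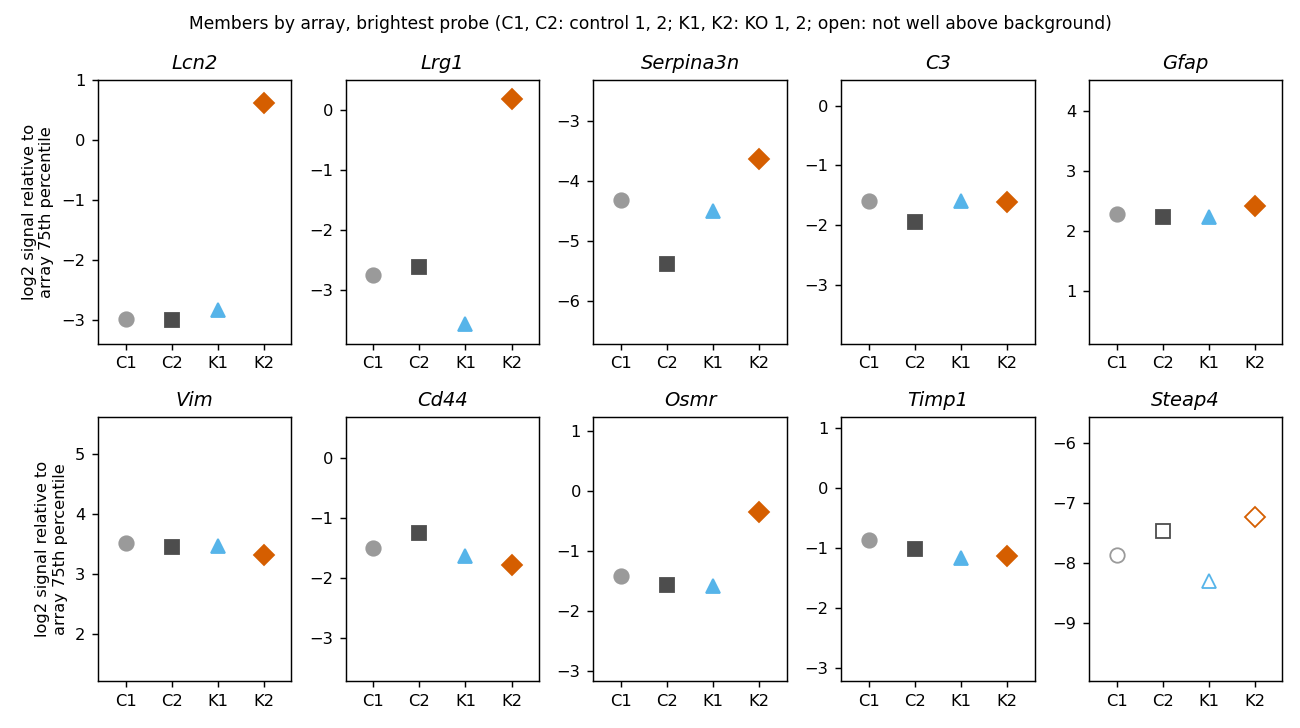
Each panel plots 1 gene by its brightest probe: the vertical axis is log2 signal minus the 75th percentile of that array, with the same span in every panel, and the horizontal axis the 4 arrays. Lcn2, Lrg1 and Osmr are high on KO replicate 2 alone, while Gfap, Vim, Cd44, Timp1 and C3 lie close together and Steap4 (open symbols) was not well above background.

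Osmr, which encodes the receptor subunit that pairs with gp130 to bind oncostatin M, was the 1 other gene of the list that was at least 2-fold higher on KO replicate 2 than on every other array. Control levels were −1.41 and −1.56, with −1.58 in KO replicate 1 and −0.35 in KO replicate 2. The 3 lower arrays lay within 0.17, and the gap to KO replicate 2 was 1.06, a ratio of 2.08. The second Osmr probe was not well above background on any array, so the pattern has no check from another probe. Of all 16524 genes with a kept probe, 0.127% (21 genes) were highest on that array by at least 1 on the log2 scale. Over the settings tried with all arrays the Osmr gap was 0.98 to 1.1.

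Serpina3n was also highest on KO replicate 2, but its other arrays were spread. Levels were −4.32 and −5.39 in the controls, −4.51 in KO replicate 1 and −3.64 in KO replicate 2. The gap of 0.68 to the next array was smaller than the range of 1.07 over the other 3 arrays. The signal was low, and the gene belongs to a cluster of related Serpina3 genes. Whether part of the signal comes from a paralogue was not tested.

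C3, the central complement component, did not share the pattern of Lcn2. On its brighter probe the controls were at −1.59 and −1.95, the KO arrays at −1.6 and −1.61, so that control replicate 2 was the low one and the other 3 lay together. The second C3 probe gave −1.75 and −2.63 against −1.84 and −1.69, the same order of controls with a wider gap, and KO replicate 2 was highest by 0.06.

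Gfap and Vim, the intermediate filament genes of astrocytes, were bright and nearly level. On the brighter Gfap probe the controls were at 2.29 and 2.23, KO replicate 1 at 2.24 and KO replicate 2 at 2.42. KO replicate 2 was highest, by 0.13. On the second Gfap probe it was not the highest: control replicate 1 was at 1.57 and KO replicate 2 at 1.5, with control replicate 2 at 1.13 and KO replicate 1 at 1.18. For Vim the controls were at 3.51 and 3.45, KO replicate 1 at 3.46 and KO replicate 2 at 3.32, so KO replicate 2 was the lowest.

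Cd44, a receptor for hyaluronan, and Timp1, a secreted inhibitor of matrix metalloproteinases, were lower on both KO arrays than on both controls by their brightest probes. Cd44 was at −1.5 and −1.25 in control against −1.62 and −1.77 in KO. A second kept Cd44 probe had overlapping groups, at −3.89 and −3.64 against −3.43 and −4.14, and another was not well above background on any array. Timp1 was at −0.86 and −1.01 in control against −1.16 and −1.13 in KO. Steap4, a membrane metalloreductase, was not well above background on any array, and no level or order is given for it.

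Read together, 3 of the 7 other genes with a kept probe (Osmr, Serpina3n and Gfap) were highest on KO replicate 2, against 20.5% of all 16524 genes. Of the remaining 4, control replicate 1 was highest for C3, Vim and Timp1, and control replicate 2 for Cd44. Over all 7, the median difference between KO replicate 2 and the mean of the other 3 arrays was 0.10, against −0.04 over all genes. Ranked by the gap between KO replicate 2 and the highest other array, Lcn2 was 1st, Lrg1 3rd, Osmr 19th and Serpina3n 62nd of 16524 genes. Gfap was at rank 1375, C3 at 3912, Vim at 9274, Timp1 at 11565 and Cd44 at 14876. The values do not follow the label reactive glia as a whole. Lcn2, Lrg1, Osmr and Serpina3n were highest on KO replicate 2, and Gfap was so by 0.13 on 1 of its probes. C3, Vim, Cd44 and Timp1 were not highest there by their brightest probes. The pattern is therefore called here by its leading genes Lcn2, Lrg1 and Osmr.

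**Figure D2:**
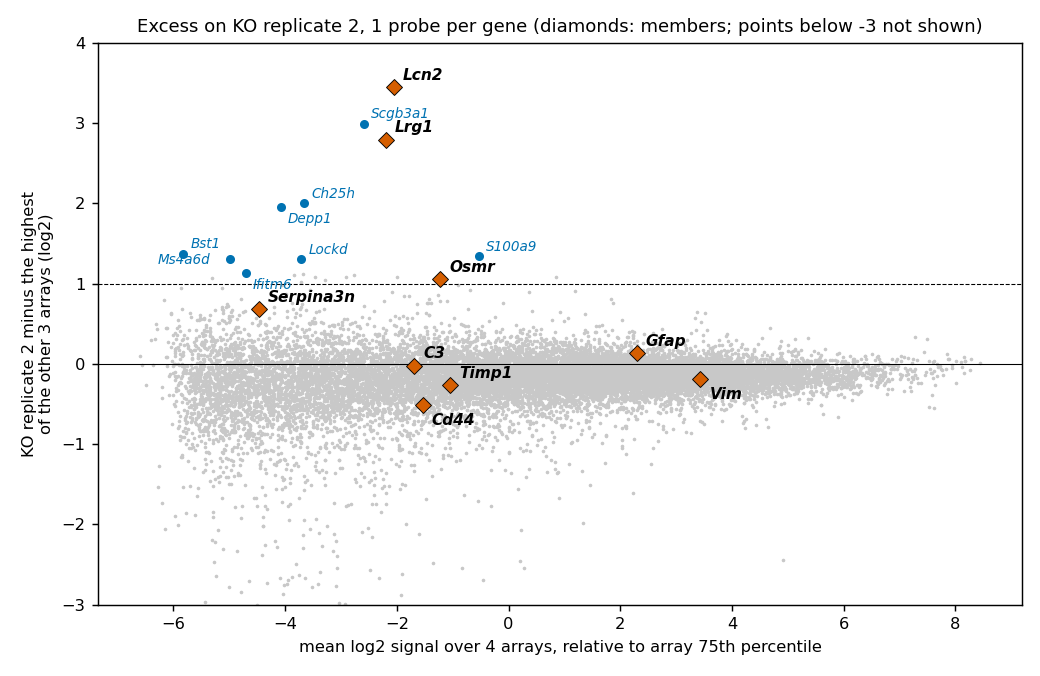
Each point is 1 gene by its brightest kept probe, with the mean log2 signal over 4 arrays on the horizontal axis and, on the vertical axis, the log2 level on KO replicate 2 minus the highest of the other 3 arrays. Diamonds are the 9 measured members and blue points the other genes among the 10 largest gaps; Lcn2 at 3.45, Lrg1 at 2.79 and Osmr at 1.06 lie above the dashed line at 1, and the other 6 members below it.

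The comparison of KO with control asks which transcripts differ with genotype. In the limma fit over 37516 probes, 0% passed a Benjamini-Hochberg adjusted p of 0.05, and 14.0% had an unadjusted p under 0.05 (5265 probes). Of the 7 other members with a kept probe, 0 passed the adjusted threshold and 0 had an unadjusted p under 0.05. None of the 7 was at least 2-fold different with separate groups (0 of 7), a rule that 1.18% of probes met. Groups were separate and lower in KO for 2 of the 7 (Cd44 and Timp1), against 32.1% of all genes, and separate and higher in KO for 0 of 7, against 13.8%. With 2 samples against 2, an exact two-sided permutation test cannot give a p under 0.333.

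None of the differences passed the test, and those of Gfap and Vim were smaller than their standard errors. The control mean of Cd44 was −1.38 ± 0.17 (SD, n = 2) and the KO mean −1.69 ± 0.10 (SD, n = 2), a difference of −0.32 (SE 0.14, limma adjusted p 0.393). For Timp1 these means were −0.94 ± 0.11 (SD, n = 2) and −1.15 ± 0.018 (SD, n = 2), a difference of −0.21 (SE 0.11, limma adjusted p 0.458). Serpina3n differed by 0.78 (SE 0.48, limma adjusted p 0.505) and Osmr by 0.52 (SE 0.43, limma adjusted p 0.607). The Serpina3n value was 1.31 without control replicate 1, 0.25 without control replicate 2, 1.21 without KO replicate 1, 0.35 without KO replicate 2 and 0.30 with normexp background correction. For Osmr the KO arrays were far apart, with an SD of 0.87 against 0.11 in control, and without KO replicate 2 the difference was −0.10. C3 differed by 0.17, Gfap by 0.07 and Vim by −0.09, with limma adjusted p of 0.647, 0.796 and 0.733. Without KO replicate 2, Gfap was at −0.02, and without control replicate 2, C3 was at −0.01. The median over the 7 was 0.07, against −0.03 over all probes.

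Other genes of the interleukin-6 and STAT3 pathway were taken from a list of 18, of which 15 had a kept probe. KO replicate 2 was the highest array for 8 of the 15 (53.3%), against 20.5% of all genes, and the list's median there was 0.14 above the mean of the other arrays. Bcl3, a nuclear partner of NF-κB subunits, came closest to Osmr, with −2.27 and −2.23 in the controls, −2.35 in KO replicate 1 and −1.15 in KO replicate 2. Its gap to the next array was 1.08, and the 3 lower arrays lay close together. Cebpd, the C/EBP delta transcription factor, gave 0.80 and 0.49 in the controls, 0.88 in KO replicate 1 and 1.53 in KO replicate 2, a gap of 0.64. Il6ra, the interleukin-6 receptor, gave −0.22, −0.28 and −0.31 on the first 3 arrays and 0.18 on KO replicate 2.

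The core of the pathway was level. Stat3 lay between 1.93 and 2.03 on all 4 arrays, and Il6st, which encodes gp130, between 1.18 and 1.42. Socs3, a feedback inhibitor that STAT3 induces, was at −0.80 on KO replicate 2 but also at −0.90 on control replicate 2, with −1.37 and −1.54 on the other arrays. Cebpb, Pim1 and Il1r1 were highest on KO replicate 2 by 0.18, 0.12 and 0.21, and Il6st by 0.01. Jak1 and Jak2, the kinases of the receptor, and the receptor gene Lifr were not highest there, nor were Cntf, Junb and Il4ra. The ligand genes Il6, Lif and Osm were not well above background on any array. None of the 15 passed the adjusted threshold for KO against control in the limma fit (0 of 15).

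**Figure D3:**
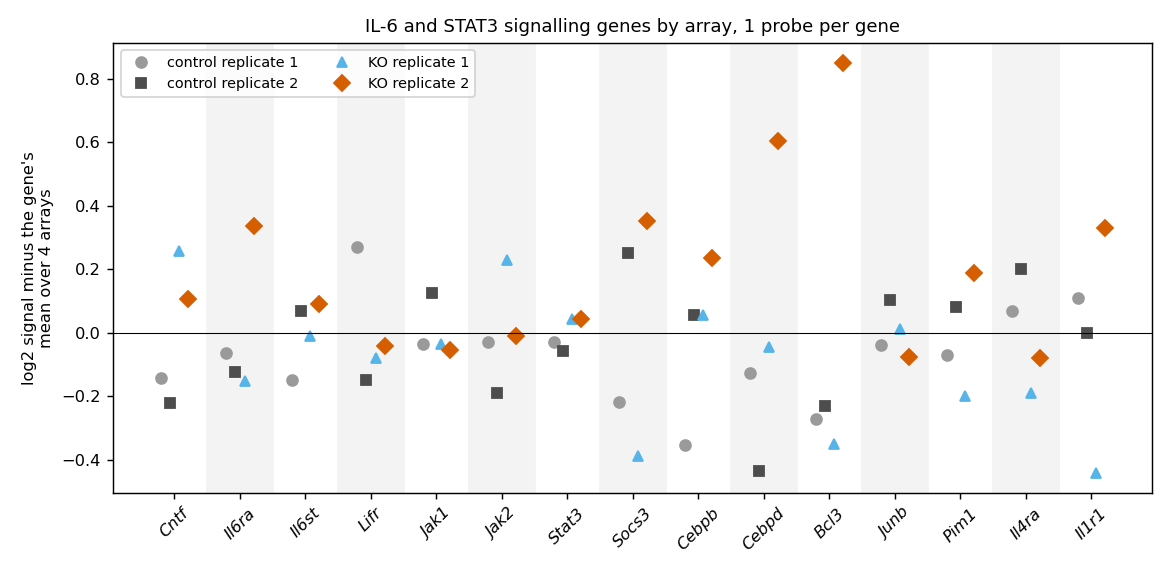
Each column is 1 of the 15 measured genes of the list, and the vertical axis is the log2 signal on an array minus the gene's mean over the 4 arrays. Symbols mark the arrays; Bcl3 and Cebpd stand out on KO replicate 2, while Stat3, Il6st and Jak1 lie near 0 on all arrays.

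Lists of reactive astrocyte genes were read next. The pan-reactive list has 13 genes, 8 of them described above, Lcn2 included, so no count is given over the whole list. Among the other 5, Aspg was highest there by 0.59, Cp by 0.28 and S1pr3 by 0.01, whereas Hspb1 was lowest there, at 2.76 against 3.17 and more on the other arrays, and Cxcl10 was not highest. In the A1 list, 4 of 12 kept genes (33.3%) were highest on KO replicate 2, against 20.5% of all genes, led by Fkbp5 (gap 0.90) and Serping1 (gap 0.29). Fkbp5 is also on the list of glucocorticoid-induced genes read below, by the same probe. The other 8 A1 genes were highest on control replicate 1, against 4793 of all 16524 genes. In the A2 list 2 of 9 (22.2%) were highest on KO replicate 2, Ptgs2 with a gap of 0.24 and Cd14 with 0.08. KO was higher than control for 4 of 12 A1 and 1 of 9 A2 genes, against 36.1% of all genes, and 0 genes of either list passed the adjusted threshold in limma.

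Of 10 kept acute phase genes of liver type, 5 (50%) were highest on KO replicate 2, against 20.5% of all genes, with a list median 0.25 above the mean of the other arrays, against −0.04. For KO against control 0 of the 10 passed the adjusted threshold in limma. Hp, which encodes the haemoglobin-binding haptoglobin, gave −4.14 and −3.82 in the controls, −3.78 in KO replicate 1 and −3.03 in KO replicate 2, and Cfb was highest there by 0.28. Saa1 and Saa2, near-identical genes whose probes may share signal, were not highest there, and Fga, Fgb, Fgg, Orm1 and Orm2 were not well above background on any array. Of 13 kept NF-κB and cytokine genes, 2 (15.4%) were highest on KO replicate 2: Cxcl1, a neutrophil-attracting chemokine, by 0.47, and Vcam1 by 0.01. Cxcl1 was higher on both KO arrays (−3.49 and −3.02) than on both controls (−4.11 and −4.5), with a limma adjusted p of 0.273. Groups were separate and higher in KO for 2 of the 13, against 13.8% of all genes. They were separate and lower for 4, against 32.1%. Il1b and Il1a were not well above background on any array.

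Markers of cell types and conditions that could carry Lcn2 or Lrg1 were read on the same arrays. Neutrophils store lipocalin 2 in their granules. Of 11 neutrophil markers 9 were kept, 4 of them (44.4%) highest on KO replicate 2 against 20.5% of all genes, and the log2 of their summed signal was 0.17 and 0.83 in control against 1.21 and 2.0 in KO. KO was higher than control for 9 of the 9, against 36.1% of all genes. The groups were separate and higher in KO for 6, against 13.8% of all genes, with 0 limma calls after adjustment. Ngp and Ltf, counted in both the 9 and the 6, passed the filter only through the KO arrays. That route favours genes that are higher in KO, so these 2 add little to either count. S100a8 and S100a9, calgranulin genes of myeloid cells, gave −4.61 and −2.60 in control replicate 1, −3.0 and −0.78 in control replicate 2, −2.27 and −0.05 in KO replicate 1 and −1.16 and 1.30 in KO replicate 2. Both differed among all 4 arrays and were highest on KO replicate 2, as Lcn2 was. S100a8 and S100a9 were also higher on KO replicate 1 than on the controls, and Lcn2 was near level on the first 3 arrays. The granule genes Camp, Elane, Mpo and Ngp were not highest on KO replicate 2, nor was Mmp9, while Ltf and Mmp8 were, by 0.41 and 0.61. Of the markers not kept, Retnlg was well above background on KO replicate 2 alone, and Cxcr2 was so on no array. The part of neutrophil RNA in the Lcn2 and Lrg1 signal was not tested.

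Glucocorticoid-induced genes were the list with the largest median on KO replicate 2 among those read, 0.75 above the mean of the other arrays, with 9 of 12 (75%) highest there against 20.5% of all genes. Zbtb16 gave 1.39 and −0.84 in the controls, 0.36 in KO replicate 1 and 2.47 in KO replicate 2, and Fkbp5 gave 0.57, −0.46, −0.08 and 1.47. Control replicate 1 was the next highest for both, and also for Osmr and Serpina3n. Serpina3n had the same order of all 4 arrays as Zbtb16 and Fkbp5, at −4.32 and −5.39 in the controls, −4.51 in KO replicate 1 and −3.64 in KO replicate 2. For Lcn2 the next highest was KO replicate 1, with the 3 lower arrays within 0.16, and for Lrg1 it was control replicate 2. The log2 of the list's summed signal was 6.02 and 5.48 in control against 5.80 and 6.16 in KO. Its part in the result was not tested.

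Markers of glia, vessels and meninges were read in the same way. The log2 of the summed signal was 9.06 and 9.07 in control against 8.94 and 9.02 in KO for 10 astrocyte and Bergmann glia markers. For 10 microglia markers it was 4.73 and 4.69 against 4.35 and 4.61. For 9 endothelial markers it was 5.36 and 5.23 against 5.26 and 5.39, and for 9 meningeal fibroblast markers 5.21 and 5.25 against 4.88 and 5.19. The share highest on KO replicate 2 was 20% of the astrocyte, 20% of the microglia, 22.2% of the endothelial and 44.4% of the meningeal markers (4 of 9), against 20.5% of all genes. The meningeal median was highest on that array, at 0.20 above the mean of the others with 0.16 on control replicate 2. The endothelial sum was highest there as well, with Ly6c1 its brightest gene at 4.4. The endothelial median was not, at 0.0 there against 0.09 on control replicate 1. The part of these cells in the result was not tested. On KO replicate 2 the leading genes of these lists were highest by little: Aldoc by 0.09, C1qc by 0.06, Slc6a13 by 0.20 and Ly6c1 by 0.18. Choroid plexus (9 of 9 kept genes) and red blood cell markers (5 of 5) were highest on control replicate 2, against 4898 of all 16524 genes. On that array Lcn2, Lrg1 and Osmr were below their level on KO replicate 2. The part of choroid plexus and blood in the result was not tested. The ER chaperone list, of genes that respond to misfolded protein, also holds the transcription factor gene Xbp1. The genes of this list were highest on KO replicate 1 for 14 of 14, against 3443 of all 16524 genes. Of these genes, 12 of the 14 were higher on both KO arrays than on both controls, against 13.8% of all genes. The log2 of their summed signal was 7.15 and 7.24 in control against 7.91 and 7.64 in KO, with 0 limma calls after adjustment, and their part in the Lcn2 signal was not tested.

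**Figure D4:**
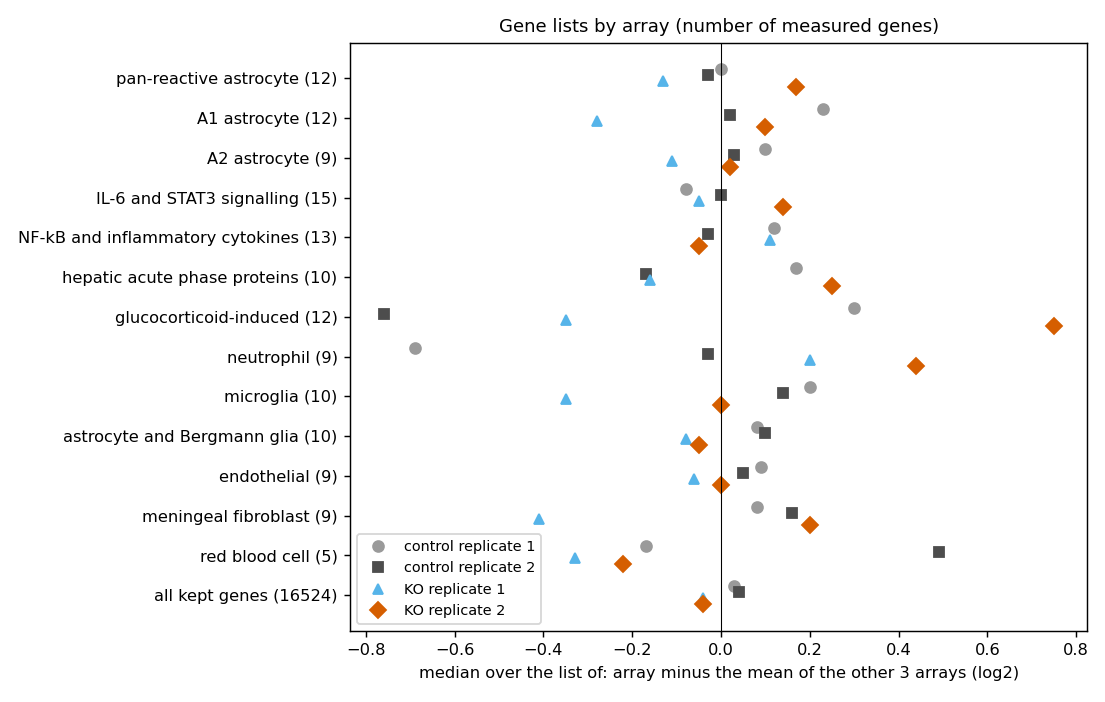
For each list, symbols give the median over its measured genes of the log2 level on 1 array minus the mean of the other 3 arrays; the number of genes is in parentheses and the bottom row is all genes. KO replicate 2 is furthest right for the glucocorticoid-induced (0.75), neutrophil (0.44) and hepatic acute phase (0.25) lists. It is so as well for the meningeal fibroblast (0.20), pan-reactive (0.17) and IL-6 and STAT3 (0.14) lists. The pan-reactive list holds Lcn2 itself. Choroid plexus, at 4.89 on control replicate 2, is outside the range and not drawn. The ER chaperone, granule cell and Purkinje cell lists are not drawn either.

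The genes most like Lcn2 were those with the largest gap between KO replicate 2 and the highest of the other 3 arrays, a measure over 4 arrays with no test. After Lcn2 came Scgb3a1, a secretoglobin, with −3.49 and −3.30 in the controls, −3.27 in KO replicate 1 and −0.28 in KO replicate 2 (gap 2.99), then Lrg1. Ch25h, which makes 25-hydroxycholesterol, gave −4.11, −4.30, −4.12 and −2.11 (gap 2.0), and Depp1 gave −4.78, −4.49, −4.51 and −2.54 (gap 1.96). The other 5 of the first 10 were Bst1, S100a9, Ms4a6d, Lockd and Ifitm6, with gaps from 1.13 to 1.37. Bst1, like S100a9, was also uneven on the other arrays, at −7.26 and −5.97 in control and −5.73 in KO replicate 1. Genes high on a single array by at least 1 were more frequent on the controls, with 96 on control replicate 1 and 70 on control replicate 2 against 15 on KO replicate 1 and 21 on KO replicate 2. Control replicate 1 had 1350 spots on or near raised local background, control replicate 2 had 32 and each KO array 0. On control replicate 2 the median of the choroid plexus list was 4.89 above the mean of the other arrays. The part of either in these counts was not tested.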

How the data were processed

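Scanner files hold, per the file headers, the processed signal of Agilent Feature Extraction 12.1.1.1 (10.7.1.1 in the submitters' processing notes), a deposited intensity that is background subtracted and detrended within an array but not scaled across arrays. A further table, also deposited, is in log2; between arrays their differences matched those of the scanner values within 0.01 for 100% of 25126 bright probes. Its probes are also centred on a value not given in the sources used here, with column medians of 0.007, −0.194, −0.160 and −0.222.

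Control spots and flagged spots were left out, log2 signals of a probe's spots averaged, and each array's 75th percentile subtracted. RefSeq accessions mark 35886 of 56605 probes, and 91.9% of them found a symbol in RefSeq (GRCm38.p6). Probes well above background on both arrays of a group were kept (37516, 16524 genes). A gene is read by its brightest kept probe. KO was compared with control with limma 3.58.1 in R 4.3.3, with no covariates; the fit was tested on simulated data. Members, lists, named genes and tests were chosen with earlier results of these data known. Genes were named by fixed rules: all members, the pathway list, the leading 2 of each list, and the 10 largest gaps; other genes were named after their values were seen. The 4 arrays limit the precision.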

Additional observations from a re-analysis of the deposited data

How the results depend on the processing

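The gaps of Lcn2, Lrg1 and Osmr between KO replicate 2 and the next array stayed above 0 in all settings that hold KO replicate 2 (leaving it out gives no gap), from 2.90 to 3.45, 2.38 to 2.80 and 0.98 to 1.1 with all arrays. The lowest values came with normexp background correction (offset 50), under which 0 of the 7 other members, in place of 1, were at least 2-fold higher there. The count of members highest on that array was 3 or 4. None of the 7 other members passed the adjusted limma threshold in any setting, with adjusted p from 0.35 to 0.991. With arrays left out, the KO minus control differences ran from −0.90 to 2.86 for Lrg1, −0.10 to 1.13 for Osmr, −0.02 to 0.16 for Gfap and −0.01 to 0.35 for C3. The 3 negative values of Lrg1, Osmr and Gfap came without KO replicate 2, and that of C3 without control replicate 2.

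Probes past the adjusted threshold, 0 with limma, were 1 each with quantile normalization, with median scaling and without the spots on or near raised local background, 2 under normexp and 4 under an intensity trend with robust variances. They ran from 0 to 98 with an array left out, the highest without control replicate 2. Probes at least 2-fold different with separate groups, 441, became 84 under normexp, 1239 with no filter and 233 with a filter on all 4 arrays, and ran from 565 to 890 with an array left out. A lone array is assumed to vary like the other group. With the replicate number as a block the count stayed 0 (6051 probes at an unadjusted p under 0.05, against 5265); same-numbered samples deviated together with r = 0.124, from only 2 pairs, which does not show that numbers pair animals. Dim signals near background limit Serpina3n, Steap4 and the second Osmr probe most.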

Other observations

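Some transcripts were well above background on KO replicate 2 and on no other array, as the dimmer Lcn2 probe was; these were picked after their values were seen. There were 343 such probes, of which 16 exceeded by at least 2-fold the mean, over the other arrays, of the lowest signal called well above background. On KO replicate 1 the same counts were 701 and 8, on control replicate 2 they were 408 and 40, and on control replicate 1, which has a patch of raised local background, 352 and 306. After Lcn2 the largest named ones on KO replicate 2 were Mid1 (at least 12.7-fold), Rspo4, a secreted activator of Wnt signalling (at least 9.20-fold), Retnlg, a resistin-like gene of neutrophils (at least 2.99-fold), and Vnn1, a pantetheinase (at least 2.69-fold). Retnlg, which is also on the neutrophil list read above, gave −7.82 and −6.53 in the controls, −6.28 in KO replicate 1 and −4.40 in KO replicate 2. None of these probes was kept for the test of KO against control.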
